A study of Mus musculus with 12 samples.

Results

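The peaks described here are the 1308 places in protein-coding exons at which the authors' deposited peak lists put hnRNP H on RNA of the mouse striatum, out of 14711 distinct listed positions. A position was kept when the deposited regions placed its midpoint in a coding exon and in neither a 3′ nor a 5′ UTR. The lists were called on these CLIP libraries, and beyond that listing no measured level entered the choice. Of the other positions, 10317 lay in introns, 1935 in 3′ UTRs, 801 in 5′ UTRs and 291 in exons of other kinds, and 59 met no region. Coding-exon peaks made up 890 of 9903 positions in the methamphetamine list (8.99%, Wilson 95% interval 8.44 to 9.57%) and 820 of 9537 in the saline list (8.60%, 8.05 to 9.18%). The 2 intervals overlap, and with 1 list per treatment there is no replicate check of that difference.

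The 6 CLIP-seq libraries, in which RNA cross-linked to hnRNP H is precipitated and sequenced, came from wild-type C57BL/6J mice aged 50 to 100 days, offspring of heterozygous Hnrnph1 mutant males and C57BL/6J females. Every mouse had saline injections on 2 days and, on day 3, either saline again or methamphetamine at 2 mg/kg. Striata were dissected 30 min later, and each of the 3 replicates per treatment pooled 4 mice, 2 of each sex. RNA-seq libraries were made from part of the same 6 pools, taken before cross-linking. CLIP RNA was taken from a membrane between 50 and 75 kDa, which sets the size of the complexes kept.

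hnRNP H is a nuclear RNA-binding protein of the heterogeneous nuclear ribonucleoprotein family. Its quasi-RRM domains bind runs of G, and it is known for regulating alternative splicing and polyadenylation from sites in exons and introns. A coding exon also codes for protein, so a G-run there is part of the codons of the transcript. Methamphetamine releases dopamine in the striatum, where most neurons are medium spiny neurons.

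Library depth differed. CLIP reads at all distinct positions of the count table ranged from 423057 in saline replicate 2 to 1635338 in saline replicate 3, and CPM values here are counts scaled to that total. Coding-exon peaks held between 8060 and 33690 reads per library. The first principal component split the libraries into set A (saline replicates 1 and 3, methamphetamine replicate 2) and set B (the others), in both assays and across treatment; these sets were defined from the data, and the labels name no batch that follows them. Across the 429 coding-exon peaks with enough reads to test, correlations of log2 CPM ranged from 0.50 to 0.83 between libraries of 1 set (6 pairs) and from 0.28 to 0.50 between sets (9 pairs). The tissue label matched its markers: the summed RNA level of 12 medium spiny neuron genes lay between 12.98 and 13.61 log2 CPM in every RNA-seq library. The summed level of 6 choroid plexus genes ranged from 5.90 to 7.81 log2 CPM after saline and was 7.46, 12.27 and 6.35 after methamphetamine (replicates 1 to 3), so that replicate 2 alone was high. That of 6 cortical excitatory genes ranged from 7.48 to 9.03 and from 8.75 to 9.70. Whether these other tissues had a part in the results was not tested.

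The sequences below show what the peaks look like. Each is the 100 nt of the peak, 5′ to 3′ on its own strand, read from GENCODE M21 transcripts on GRCm38, and capitals mark runs of 3 or more G. Harbi1, Marveld3, Sv2a and Acin1 are shown for separate G-runs, Cavin4 for a high peak in a gene with little RNA, Taf15, Nefm, Cenpb and Cplx2 for purine repeats, Bex2 for the smallest p in the treatment comparison, and mt-Cytb for a mitochondrial peak.
Harbi1: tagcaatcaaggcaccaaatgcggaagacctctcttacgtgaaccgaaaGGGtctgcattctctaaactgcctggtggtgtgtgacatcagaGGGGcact
Marveld3: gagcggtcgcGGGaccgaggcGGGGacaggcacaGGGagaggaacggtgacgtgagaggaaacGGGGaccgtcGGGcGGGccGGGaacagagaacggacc
Sv2a: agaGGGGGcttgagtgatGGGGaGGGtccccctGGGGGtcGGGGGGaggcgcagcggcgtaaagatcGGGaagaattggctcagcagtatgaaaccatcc
Acin1: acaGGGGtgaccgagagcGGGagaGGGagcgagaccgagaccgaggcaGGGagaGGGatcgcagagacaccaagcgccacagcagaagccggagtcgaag
Cavin4: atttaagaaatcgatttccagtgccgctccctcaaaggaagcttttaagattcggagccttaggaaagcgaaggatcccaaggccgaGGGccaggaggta
Taf15: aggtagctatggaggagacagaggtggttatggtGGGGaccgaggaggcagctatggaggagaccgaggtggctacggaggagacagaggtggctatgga
Nefm: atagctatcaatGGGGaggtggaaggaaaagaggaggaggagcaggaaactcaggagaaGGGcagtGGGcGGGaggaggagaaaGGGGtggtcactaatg
Cenpb: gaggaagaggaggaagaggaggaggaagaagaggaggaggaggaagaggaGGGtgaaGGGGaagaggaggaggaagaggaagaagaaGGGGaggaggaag
Cplx2: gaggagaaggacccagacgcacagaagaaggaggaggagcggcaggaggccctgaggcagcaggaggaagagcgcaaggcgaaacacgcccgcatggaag
Bex2: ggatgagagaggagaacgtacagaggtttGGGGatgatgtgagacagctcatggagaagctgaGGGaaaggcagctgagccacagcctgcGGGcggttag
mt-Cytb: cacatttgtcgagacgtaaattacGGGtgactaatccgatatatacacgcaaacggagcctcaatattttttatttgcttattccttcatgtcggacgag
The Cplx2 window holds no run of 3 G, whereas Marveld3 holds 7 such runs, Sv2a 6 and Acin1 5. The Cenpb and Cplx2 windows hold repeats of GAG and GAA, and the Taf15 window repeats the letters GGAGGA.

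G-runs were more frequent in the peaks than in windows of coding sequence. Among the 857 coding-exon peaks whose 100 nt lay within 1 exon of a transcript, 81.2% held GGG on the peak strand (Wilson 95% interval 78.5 to 83.7%) and 43.2% held GGGG (39.9 to 46.5%). For comparison, 1 protein-coding transcript per gene, that with the longest coding sequence, was cut into 100-nt windows within exons. Only full windows were kept, so exons under 100 nt and the remainders of longer exons were left out. These windows (267206, all coding windows below) held GGG in 65.9% and GGGG in 24.2%. The other windows of the same genes (17308), which met no listed peak, held them in 71.4% and 28.2%. Runs of 5 G stood in 16.3% of peaks against 6.02% of all coding windows. A pattern of 4 runs of GGG spaced by 1 to 7 nt, which can fold into a G-quadruplex, stood in 3.15% of peaks and 0.246% of all coding windows. Mean G content was 32.1% against 25.9%. The intervals cover counting error only, and no test was made because overlapping and neighbouring peaks are not independent.

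Peaks in UTRs differed in the kind of run. In 3′ UTR peaks with a sequence (1815), GGG was in 76.9% and GGGG in 45.3%, and in 5′ UTR peaks (584) in 90.8% and 62.8%. Runs of 5 G were in 21.8% of 3′ UTR and 34.1% of 5′ UTR peaks, above the 16.3% of coding-exon peaks. The 4-run pattern was in 10.6% and 10.5%. The purine hexamer GAGGAG, picked for a look after the sequences had been seen, ran the other way against 3′ UTRs. It stood in 18.8% of coding-exon peaks, 7.05% of 3′ UTR peaks and 14.6% of 5′ UTR peaks. All coding windows held it in 8.43%, and the other coding windows of genes with a coding-exon peak in 10.7%. The hexamer itself holds no run of 3 G, and its last G can begin one. UTR windows without a peak were not measured, so whether these differences between classes go beyond those of the regions themselves was not tested.

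**Figure D1:**
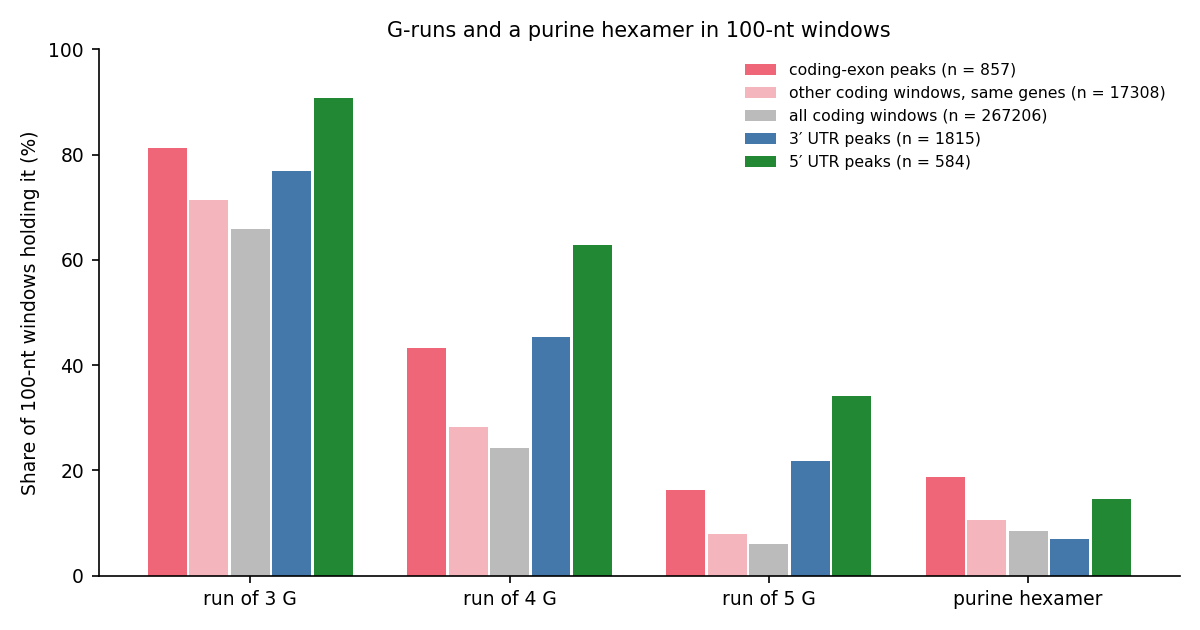
Share of 100-nt windows (vertical axis, %) that hold a run of at least 3, 4 or 5 G or the purine hexamer GAGGAG, for coding-exon peaks, other coding windows of the same genes, all coding windows, and 3′ and 5′ UTR peaks; n is the number of windows. Coding-exon peaks stand above both kinds of coding window in all 4 groups of bars, with 81.2% for a run of 3 G against 71.4% and 65.9%.

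Within the coding-exon peaks, CLIP level showed no steady order with the longest G-run. Median CPM was 7.23 in the 125 counted peaks whose longest run had at most 2 G, 6.92 with a longest run of 3 (250 peaks), 6.00 with 4 (168), 7.94 with 5 or 6 (116) and 17.3 with 7 or more, where there were only 5 peaks. GGGG was in 42.2% of the peaks at or above the median CPM and 44.9% of those below it, while runs of 5 G were in 20.5% and 16.0% and the pattern of 4 G-runs in 4.82% and 2.41%. GAGGAG was in 83 of the 332 upper and 50 of the 332 lower peaks. The hexamer was more frequent at higher RNA level, from 1.89% of the 53 peaks in genes below 0 log2 CPM to 27.1% of the 321 in genes above 6. The 2140 GGG triplets in coding frame began at codon positions 1, 2 and 3 in 31.3%, 35.0% and 33.8% of cases.

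The peaks lay in long exons more often than coding sequence does and ran past exon edges less often than windows centred on coding bases. The exon that held the peak midpoint had a median of 434.5 nt in 1202 nuclear peaks on the gene's own strand, against 213 nt weighted over all coding bases, and 31.2% of peaks against 24.0% of coding bases lay in exons over 1000 nt. The peak ran past the 5′ end of its exon in 17.2% of cases and past the 3′ end in 18.7%, where a 100-nt window centred on any coding base would do so in 25.1% and 24.5%. Exon length was not held fixed, and peaks with an intronic midpoint are outside this class. Binding at splice sites was therefore not tested. First exons held 25.3% of peaks and 12.9% of coding bases, whereas last exons held 26.0% and 23.5%. With the coding sequence cut into 5 equal parts, the part next to the start codon held 26.1% of the peaks and the other 4 held 17.0 to 19.9% each. The 398 peaks that crossed an exon edge had a median of 7.72 CPM and the 804 within an exon 6.61 CPM. For 533 of the 1308 peaks (40.8%) the midpoint was also intronic in another transcript in the deposited regions, so the class of those peaks depends on the transcript taken.

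Most genes held 1 peak. The 1242 peaks on the strand of the coding gene fell in 1022 genes, of which 881 had 1 peak, 141 had 2 or more and 21 had at least 4. The other 66 peaks lay opposite a coding exon of another gene, such as the peak opposite Pi16 that was called in AC162182.1. In 334 of the 1022 genes (32.7%) an intron peak was listed as well, in 114 (11.2%) a 3′ UTR peak and in 62 (6.07%) a 5′ UTR peak, and 624 (61.1%) had no listed position of another class. Hnrnph1, which encodes the precipitated protein, held no coding-exon peak.

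Genes with more RNA held a coding-exon peak more often, but the CLIP level of a counted peak hardly moved with RNA. A peak was present in 2.03% of genes below 0 log2 CPM, in 4.84 to 5.27% of genes between 0 and 6, in 8.52% between 6 and 8 and in 17.5% of the 673 genes at 8 or more. The median RNA level of the genes with a peak was 4.76 log2 CPM (984 genes), against 3.44 over all 18208 genes. Median CLIP level stayed between 5.30 and 7.75 CPM in all 6 RNA classes. Across 1008 peaks with both values, Pearson's r between CLIP and RNA level was 0.07 and Spearman's rank correlation 0.09, as a description across peaks that share libraries. Only listed peaks with counts enter these values, and 42.9% of the peaks in the highest RNA class have no counts.

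**Figure D2:**
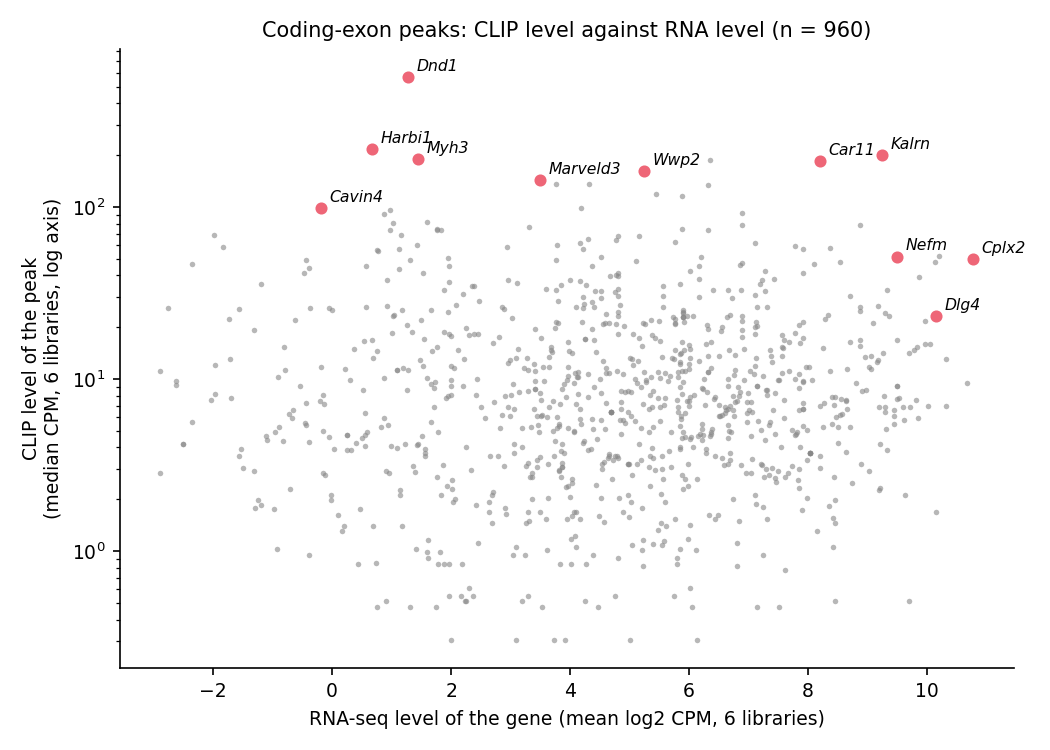
CLIP level of each counted coding-exon peak (median CPM over 6 libraries, log axis) against the RNA-seq level of its gene (mean log2 CPM over 6 libraries), for the 960 peaks with a median above 0; red points are named in the text. The cloud is level, and Dnd1, Harbi1 and Cavin4 stand high at RNA levels of 1.28, 0.67 and -0.18 log2 CPM.

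A part of the peaks has no read count, and the share without one was highest in the most abundant mRNAs. The count table has a line for 1054 of the 1308 peaks, and 254 (19.4%) have none, against 4.82% of all other listed positions, 15.6% of 3′ UTR and 2.36% of intron positions. In genes at 8 log2 CPM or more 42.9% of the peaks lack a line, and in the 5 lower classes 10.4 to 16.3%. Only 4 of the 254 overlapped another counted position by 50 bp or more. By list, 29.7% of the peaks listed for methamphetamine alone, 20.3% of those for saline alone and 5.97% of those in both had no line. The peaks of Map1a, Actb and the striatal signalling genes Ppp1r1b and Adcy5 are among them, so no level or change can be given for those.

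**Figure D3:**
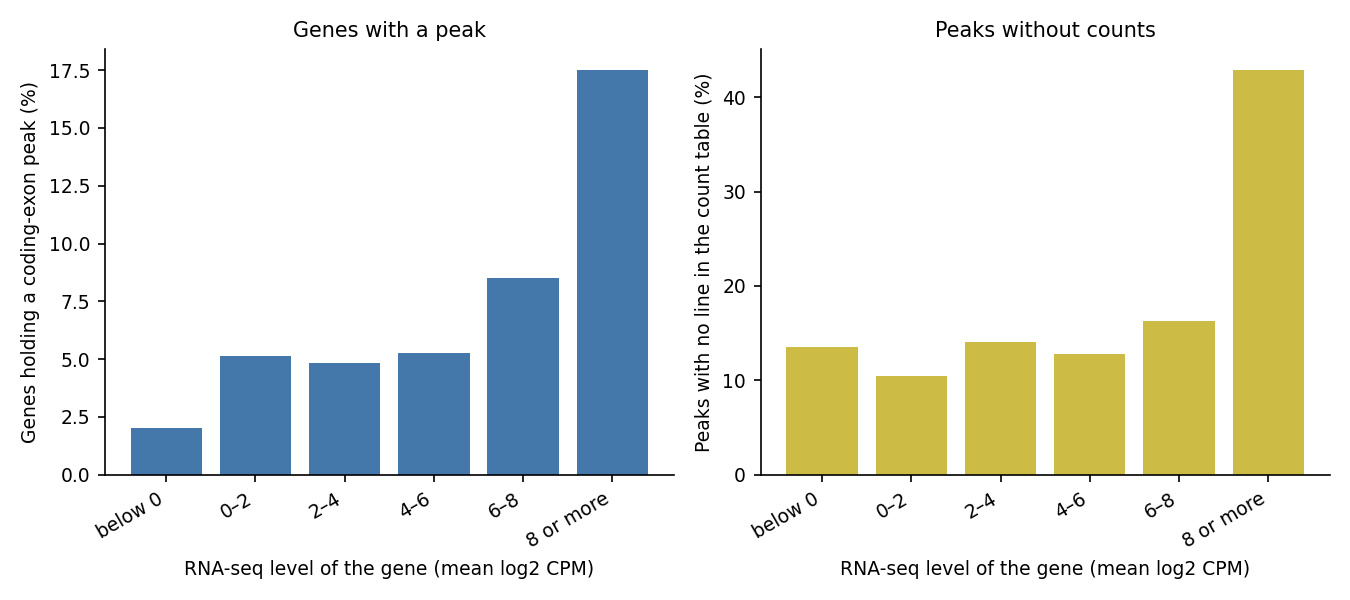
Share of genes that hold a coding-exon peak (left, %) and share of coding-exon peaks with no line in the count table (right, %), by RNA-seq level of the gene in 6 classes of mean log2 CPM. Both are highest in the class at 8 or more, at 17.5% and 42.9%.

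Reads were unevenly spread over the peaks. The median counted coding-exon peak had 7.16 CPM (quartiles 3.11 and 16.1) and 51 reads in the 6 libraries together, close to 7.12 CPM for 3′ UTR and 7.44 CPM for intron peaks and below 8.65 CPM for 5′ UTR peaks. More than 3 reads in all 6 libraries were found in 311 (29.5%). The 100 peaks with the most reads held 45.0% of all coding-exon reads, and the top 10 held 13.9%.

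The highest peaks, 7 of which are described, lay in genes of unlike function, several of them with little striatal RNA. Dnd1, a germ-cell RNA-binding protein, had its peak in exon 3 of 4 (chr18:36765272-36765371, minus strand) with 547, 711 and 583 CPM in the saline libraries, then 364, 547 and 1280 CPM with methamphetamine, here and below in the order of replicates 1 to 3. The methamphetamine libraries lay on both sides of the saline ones, and the highest and the lowest values both came after methamphetamine (log2 change 0.42, edgeR unadjusted p 0.422, adjusted p 0.9998). Without methamphetamine replicate 3 the Dnd1 change turned to -0.28. Harbi1, which derives from a transposase, had 357, 75.6 and 688 CPM after saline and 107, 266 and 165 CPM after methamphetamine in exon 2 of 3 (chr2:91712653-91712752, plus strand). Here the saline libraries alone span a wider range than the methamphetamine ones, and saline replicate 2 is the lowest of all.

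Kalrn encodes a guanine nucleotide exchange factor of dendritic spines and had 9.25 log2 CPM of RNA. Its peak, at the edge of exon 9 of 60 (chr16:34307574-34307673, minus strand), had 224, 232 and 175 CPM after saline and 134, 234 and 99.1 CPM after methamphetamine. Myh3, an embryonic muscle myosin heavy chain with only 1.44 log2 CPM of RNA, varied less between libraries, with 198, 243 and 195 CPM after saline and 155, 184 and 155 CPM after methamphetamine (exon 24 of 40, chr11:67093501-67093600, plus strand). All 3 methamphetamine values of Myh3 were below all 3 saline values, at a log2 change of -0.18 and an edgeR unadjusted p of 0.621 (adjusted p 0.9998). Without saline replicate 2 the Myh3 change was 0.033. Its peak crosses an exon edge.

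Car11, a carbonic anhydrase-related protein without enzyme activity, had 101, 85.1 and 216 CPM and then 153, 227 and 291 CPM in exon 1 of 9 (chr7:45700244-45700343, plus strand; log2 change 0.95, edgeR unadjusted p 0.0591, adjusted p 0.9998). Its groups overlapped. Wwp2, a ubiquitin ligase, had 86.4, 208 and 114 CPM after saline and 296, 75.5 and 511 CPM after methamphetamine in its last exon (chr8:107556866-107556965, plus strand). In each treatment its values were highest in the set B libraries. Marveld3, a tight-junction protein, had 157, 123 and 130 CPM after saline and 63.8, 155 and 161 CPM after methamphetamine in exon 1 of 3 (chr8:109961915-109962014, minus strand), and methamphetamine replicate 1 was the low library.

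Some high peaks stood in genes with RNA near the floor of the RNA-seq table. The peak of Cavin4, a muscle caveola protein, had 94.0, 123 and 95.4 CPM after saline and 84.7, 101 and 124 CPM after methamphetamine at an RNA level of -0.18 log2 CPM (exon 2 of 2, chr4:48672315-48672414, plus strand). Tespa1, a thymocyte signalling protein, had a median of 69.0 CPM at -1.99 log2 CPM, Gprc5d, an orphan receptor, 58.4 CPM at -1.83, and Psg25, a pregnancy-specific glycoprotein, 46.8 CPM at -2.36. All 4 peaks had reads in every library, and 67 of 1008 counted peaks with an RNA value (6.65%) lay in genes below 0 log2 CPM, against 20.1% of all genes. Reads of overlapping genes on either strand cannot be told apart where counting by strand is not stated.

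By the authors' own signal value in the deposited lists, coding-exon peaks had a median of 1.69 in the methamphetamine list (other positions 1.59) and 1.85 in the saline list (1.67). The highest in the saline list were Npw, which encodes neuropeptide W, at 5.93, Ccdc27, a coiled-coil protein, at 5.84, Mos, an oocyte kinase, at 5.24 and Cavin4 at 5.23. In the methamphetamine list the highest were the peak opposite Pi16 at 5.23, Dmrta1, a DM-domain transcription factor, at 5.14, Ace3 at 4.99 and the peak opposite the chaperone gene Hsp90b1 at 4.93. Counts of Npw and Dmrta1 came mostly from 1 library. The Npw reads numbered 51, 3 and 1 with saline and then 4, 0 and 3 with methamphetamine, and Dmrta1 had 0, 1 and 1 and then 1, 31 and 0. For Ccdc27 the saline libraries held 53, 0 and 138 reads and the methamphetamine libraries 2, 61 and 144.

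Presence in 1 list was an uneven guide to read counts. Both lists shared 402 exact positions, 488 were in the methamphetamine list alone and 418 in the saline list alone. Counting any shared base on a strand (1 bp or more), 46.3% of the methamphetamine list's coding-exon peaks met the saline list and 49.1% the other way, close to 48.7% and 50.0% over all classes. Of the 343 counted peaks listed for methamphetamine alone, 264 (77.0%) had a higher mean CPM after methamphetamine, and of the 333 listed for saline alone, 265 (79.6%) had a higher mean after saline; the lists were called on these libraries, so those counts are not independent of the listing. Among those with enough reads to test, the fitted log2 change with TMM scaling was above 0 in 53 of 98 of the former. It was below 0 in 30 of 62 of the latter. Both the peaks and the measure differ from the counts by mean CPM. Harbi1 and the Taf15 peak in exon 15 of 16, listed for methamphetamine alone, went the other way by mean CPM: 374 ± 307 and 154 ± 61.9 in saline pools, and 179 ± 80.8 and 123 ± 57.7 in methamphetamine pools (mean ± SD of 3 libraries). Wwp2, listed for saline alone, averaged 136 ± 63.8 CPM in saline pools and 294 ± 218 CPM in methamphetamine pools. None of these 3 differences exceeded the spread between replicates by edgeR (unadjusted p 0.222, 0.711 and 0.12).

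**Figure D4:**
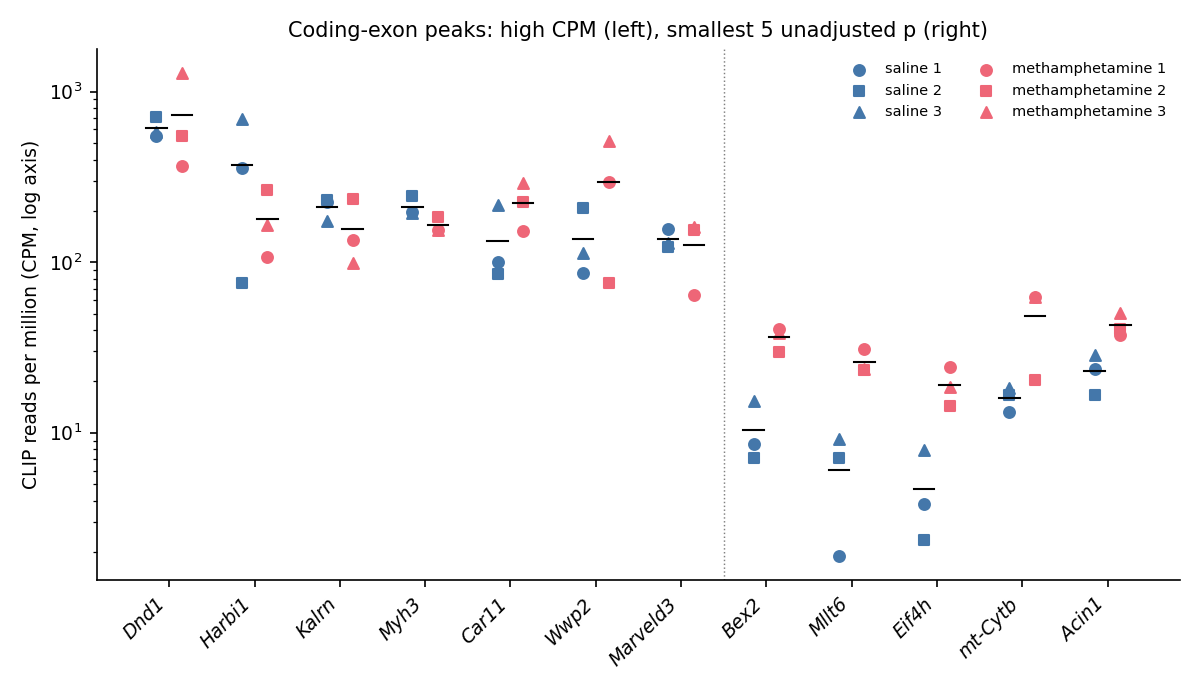
CLIP level (CPM, log axis) of 12 coding-exon peaks in each library; blue is saline, red methamphetamine, marker shape gives the replicate number and the black bars are group means of 3 libraries. The 7 high peaks on the left overlap between treatments except Myh3, and the 5 peaks with the smallest unadjusted p on the right, from Bex2 to Acin1, lie higher after methamphetamine in every library.

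No coding-exon peak passed the adjusted threshold for a change with methamphetamine. With edgeR's quasi-likelihood test over 10358 positions and Benjamini-Hochberg adjustment, 0 of the 429 coding-exon peaks that passed the filter on low counts were called at an adjusted p of 0.05 (background 0.0%; smallest adjusted p 0.9998). At an unadjusted p under 0.05 there were 15, or 3.50% (background 3.35%). Of these, 10 were higher, or 2.33% (background 1.86%), and 5 lower, or 1.17% (background 1.49%). DESeq2 gave 0 called and 16 unadjusted. Groups did not overlap in 44 peaks, or 10.3% (background 7.49%). Of these, 16 were higher, or 3.73% (background 2.65%), and 28 lower, or 6.53% (background 4.84%), so lower was the more frequent direction in the background too. The median log2 change was 0.084 (quartiles -0.28 and 0.62) against 0.047 over all positions tested, and 56.6% were above 0 (background 53.5%). Scaling by library totals in place of TMM put the median at -0.0047. The 429 are 32.8% of the 1308: 625 counted peaks, with a median of 30 reads in all 6 libraries, did not pass, and 254 had no counts. In bulk tissue fewer cells of a type and less RNA per cell cannot be told apart. The p-values compare 3 pools per treatment. In simulated counts the same fit called only 10 of 200 log2 changes of 2, so a count of 0 does not show equal levels.

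None of the peaks passed the adjusted threshold, so the 5 lowest unadjusted p-values serve as a ranking, and all 5 belonged to peaks with a higher level after methamphetamine. Bex2, a small brain-expressed X-linked protein, had 8.54, 7.09 and 15.3 CPM after saline and 40.7, 29.6 and 38.6 CPM after methamphetamine in exon 3 of 3 (chrX:136066865-136066964, minus strand). Its groups did not overlap, at a log2 change of 2.04 (edgeR unadjusted p 0.00402, adjusted p 0.9998) and 9, 3, 25, 37, 29 and 23 reads. Mllt6, a chromatin-associated PHD-finger protein, had 1.90, 7.09 and 9.17 CPM and then 30.8, 23.5 and 23.5 CPM at the edge of exon 7 of 20 (chr11:97669415-97669514, plus strand; log2 change 2.34). Eif4h, a translation initiation factor, had 3.80, 2.36 and 7.95 CPM and then 24.2, 14.3 and 18.5 CPM at the edge of exon 6 of 7 (chr5:134621922-134622021, minus strand; log2 change 2.16). In both of these peaks the lowest saline library held 1 or 2 reads. The adjacent Mllt6 peak, starting at chr11:97669515, had a log2 change of 1.08 (edgeR unadjusted p 0.193, adjusted p 0.9998).

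The peak in mt-Cytb, which encodes cytochrome b of respiratory complex III, had 13.3, 16.5 and 18.3 CPM after saline and 62.7, 20.4 and 62.1 CPM after methamphetamine (chrM:14346-14445, plus strand; log2 change 1.90). The mt-Cytb change was 1.12 with the library set as a covariate and 1.43 without methamphetamine replicate 1. Acin1, a splicing-associated nuclear protein, had 23.7, 16.5 and 28.7 CPM and then 37.4, 40.8 and 50.4 CPM in exon 19 of 19 (chr14:54642762-54642861, minus strand; log2 change 1.11). Of 984 genes with a coding-exon peak, limma on the deposited log2 CPM called 0 (background 0.0%), and 9 (0.915%; background 1.52%) had an unadjusted p under 0.05, 4 higher (background 0.555%) and 5 lower (background 0.961%). Groups did not overlap in 40 of these genes, or 4.07% (background 6.01%), 14 higher (background 2.44%) and 26 lower (background 3.58%). Their median log2 change in RNA was -0.011, against 0.0020 over all genes. These p-values do not show that levels were equal.

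The largest fitted changes came from peaks dominated by 1 library. Among the 429 tested peaks, 19 had over 50% of their summed CPM in 1 library, 9 of them in saline replicate 2. The 6 largest changes by size, picked after the values were seen, all belonged to these 19. Elp6, an Elongator subunit, had 81.7, 196 and 81.3 CPM after saline and 191, 36.7 and 1864 CPM after methamphetamine (chr9:110320774-110320873, plus strand; log2 change 2.72). Only methamphetamine replicate 3 was high, and without it the Elp6 change was 0.31. Pkdrej, a polycystin-family sperm receptor, had 87.4, 2.36 and 305 CPM and then 0, 31.6 and 0 CPM (log2 change -3.52, or -2.05 without saline replicate 3 and -9.80 without methamphetamine replicate 2). All 3 libraries of set A exceeded those of set B in Pkdrej, and the methamphetamine list alone held its peak.

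Mitochondrial coding sequence formed a group of its own. The 38 peaks in mitochondrial mRNAs, 11 listed for methamphetamine alone, 24 in both lists and 3 for saline alone, lay in 12 genes of respiratory complexes and ATP synthase. They held G-runs less often than nuclear peaks. GGG stood in 21.6% and GGGG in 10.8% of the 37 with a sequence, against 83.9% and 44.6% of 820 nuclear peaks. Mean G content was 11.3% against 33.0%. Mitochondrial coding windows were not measured apart, so whether these shares are low for mitochondrial sequence was not tested. The 25 counted peaks summed to 273, 936 and 349 CPM with saline and to 1658, 356 and 1014 CPM with methamphetamine. Set B libraries, 936 to 1658 CPM, exceeded set A libraries, 273 to 356 CPM, in both treatments.

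The mean sum was 519 ± 363 CPM (SD, n = 3) in saline pools and 1009 ± 651 CPM (SD, n = 3) in methamphetamine pools, a difference of 490 CPM with a two-sided exact permutation p of 0.2, where the smallest p this design allows is 0.1. Within set A the difference was 44.9 CPM and within set B 400 CPM. All 23 mitochondrial peaks tested had a log2 change above 0, with a median of 1.34 (range 0.81 to 2.26), and 0 were called by edgeR, with 3 at an unadjusted p under 0.05. With the library set as a covariate the median was 0.38 and 22 of 23 were above 0; without methamphetamine replicate 1 it was 0.33 with 16 of 24 above 0, and without saline replicate 2 it was 2.07. These peaks share long precursor transcripts and are not separate observations, and mitochondrial genes are absent from the RNA-seq table used here. The 406 nuclear peaks had a median log2 change of 0.035, with 54.2% above 0.

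**Figure D5:**
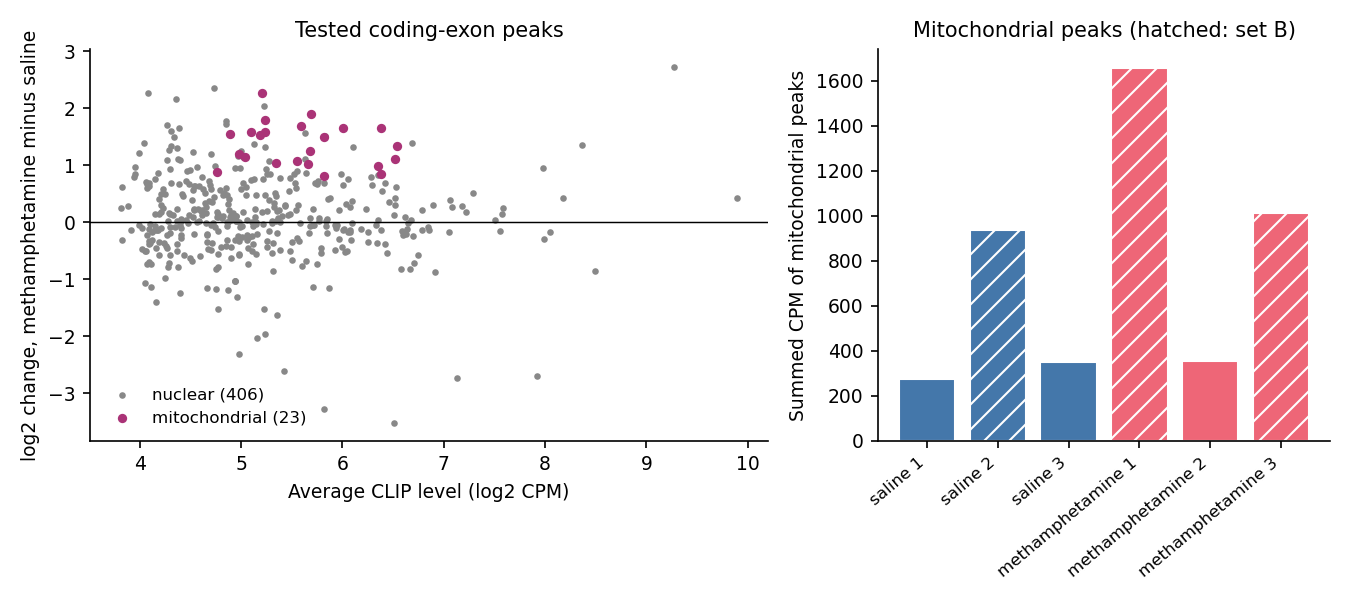
Left, log2 change with methamphetamine against average CLIP level (log2 CPM) for the 429 tested coding-exon peaks, with the 23 mitochondrial ones in purple. Right, summed CPM of the 25 counted mitochondrial peaks per library, saline in blue, methamphetamine in red, set B hatched; the 3 hatched bars, 936 to 1658 CPM, are the tallest.

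As a share of all reads in listed peaks, coding exons took 6.96, 7.05 and 7.79% with saline and 6.56, 6.88 and 7.40% with methamphetamine. The means were 7.27 ± 0.46% and 6.95 ± 0.42% (SD, n = 3 each), and their difference of -0.32 percentage points had a two-sided exact permutation p of 0.4 (Benjamini-Hochberg 0.5 over the 5 region classes). It was -0.50 within set A and -0.07 within set B. The groups overlapped. Shares in introns, at 70.9 ± 1.8% and 65.4 ± 7.9%, and in the other classes had adjusted p-values of 0.5 to 0.8 in the same exact permutation tests.

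Peaks repeated along some exons. Map1a, a microtubule-associated protein of dendrites, held 11 peaks in its 8104-nt exon 5, the most of any gene, 7 of them listed for methamphetamine alone, and none has counts. Its RNA was 11.09 ± 0.28 log2 CPM (SD, n = 3) in saline pools and 11.04 ± 0.33 (SD, n = 3) in methamphetamine pools. Cenpb, a centromere protein with an acidic tract, held 8 positions in its only exon, 4 of them called under the overlapping gene Spef1 and offset by 21 nt from those called under Cenpb, so they count much of the same RNA. Its highest, in the purine tract printed above (chr2:131178562-131178661, minus strand), had 53.2, 11.8 and 66.0 CPM after saline and 60.5, 82.7 and 50.4 CPM after methamphetamine. In all, 53 of the 1308 peaks overlapped another on the same strand and 188 (14.4%) began within 200 nt of another.

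Hirip3, which binds the histone chaperone HIRA, held 6 peaks along exon 4 of 7, all in both lists. The highest (chr7:126863873-126863972, plus strand) had 108, 23.6 and 69.7 CPM after saline and 64.9, 95.9 and 26.9 CPM after methamphetamine. In all 6 the lowest library was saline replicate 2 or methamphetamine replicate 3, both of set B, and the treatments overlapped. Chd3, a chromatin-remodelling helicase, had 6 peaks in 6 exons, 5 of them counted. The highest lay in exon 1 of 40 (chr11:69369174-69369273, minus strand) with 76.9, 106 and 80.1 CPM after saline and 58.3, 73.5 and 87.3 CPM after methamphetamine, and the one in exon 9 (chr11:69360574-69360673) went from 20.9, 9.46 and 23.2 CPM to 26.4, 37.8 and 35.3 CPM (log2 change 1.07, edgeR unadjusted p 0.034, adjusted p 0.9998). mt-Co1 also had 6 peaks, none with counts.

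Of the 12 gene lists, 276 genes in all, none held a called peak, and 1 of the 27 tested peaks in them (Chd3, exon 9) had an unadjusted p under 0.05, or 3.70% (background 3.35%). The lists do not cover whole classes, and Eif4h, a translation factor with a peak described above, is in none of them. The share of all 18208 RNA-seq genes with a coding-exon peak was 5.40%, which serves as the background for the counts below. That background is not matched for RNA level: among genes at 8 log2 CPM or more the share was 17.5%. Map1a, Dlg4 and Cplx2 are in that class, and whether any list exceeds genes of like RNA level was not tested. Cytoskeleton genes had the largest share, 12 of 26 (46.2%) with 35 peaks, 25 of them listed for methamphetamine alone, but only 10 had counts and 3 could be tested. Besides Map1a they included Actb, Kif1a, Kif5a, Dync1h1, Macf1, Map1b, Dst, Plec and tubulins. Nefm, the medium neurofilament subunit, had 38.0, 52.0 and 89.9 CPM after saline and 50.6, 74.5 and 37.0 CPM after methamphetamine in its last exon (chr14:68120291-68120390, minus strand). Tubb3, a neuronal tubulin, had 52.2, 42.6 and 55.0 CPM and then 28.6, 49.0 and 43.7 CPM (chr8:123421225-123421324, plus strand). Both sets of values overlap.

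Synaptic genes with a coding-exon peak numbered 5 of 21 postsynaptic scaffold genes (Agap2, Dlg4, Dlgap3, Homer3, Shank1; 23.8%) and 4 of 24 presynaptic release genes (Bsn, Cplx2, Sv2a, Unc13a; 16.7%). Cplx2, which clamps and promotes vesicle fusion, had 36.1, 28.4 and 114 CPM after saline and 50.6, 115 and 48.7 CPM after methamphetamine in exon 3 of 4 (chr13:54378850-54378949, plus strand). Set A libraries held its highest value in each treatment. Dlg4, which encodes the scaffold PSD-95, had 18.0, 44.9 and 23.2 CPM and then 23.1, 19.4 and 35.3 CPM in exon 2 of 7 (chr11:70026943-70027042, plus strand). That exon belongs to a transcript with a coding sequence of 714 nt, the longest that codes at the midpoint. No annotated Dlg4 transcript with a longer coding sequence codes at this midpoint. Unc13a, a vesicle-priming protein, had 19.0, 16.5 and 41.0 CPM and then 23.1, 35.7 and 18.5 CPM, and Sv2a, a vesicle glycoprotein, 8.54, 9.45 and 22.0 CPM and then 6.60, 13.3 and 35.3 CPM. The 5 tested peaks of both lists had log2 changes from 0.07 to 0.62, none below an unadjusted p of 0.05. Shank1 and Bsn peaks, at medians of 5.44 and 5.75 CPM, were under the filter.

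Voltage-gated channels held a peak in 4 of 31 genes (12.9%), of which only Kcnma1 could be tested: this calcium-activated potassium channel had 33.2, 61.5 and 20.2 CPM after saline and 34.1, 32.7 and 28.5 CPM after methamphetamine. Transmitter receptors had 2 of 28 genes, Chrm4 and Gabbr1, and the Chrm4 reads were 1 in saline replicate 2 and 13 in methamphetamine replicate 1, with 0 elsewhere. Dopamine and cAMP signalling genes had 4 of 22 (18.2%): among them Ppp1r1b, which encodes DARPP-32, Adcy5 and Pde2a. Only Pde2a had counts, at 11.4, 28.4 and 51.4 CPM after saline and 33.0, 49.0 and 45.4 CPM after methamphetamine. Its peak was called under the overlapping gene Gm45837, so the source of the reads is uncertain.

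RNA-binding and splicing genes had a peak in 8 of 40 (20.0%), with 14 peaks, 8 of them tested and 4 above 0. Taf15, an RNA-binding protein with glycine-rich repeats, had 205, 85.1 and 172 CPM after saline and 80.3, 189 and 101 CPM after methamphetamine in exon 15 of 16 (chr11:83504787-83504886, plus strand). In each treatment its set A libraries were the highest. Rbfox2, a neuronal splicing factor, had 35.1, 4.73 and 47.1 CPM and then 1.10, 39.8 and 40.3 CPM in exon 1. Hnrnpa2b1, Hnrnpu, Nova2, Srrm2 and Srsf5 also held peaks. Chromatin regulators had 2 of 26 genes, Chd3 and Ehmt2, and histones 3 of 10.

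Ribosomal protein and translation genes had a peak only in Eef1a2 among 22 (4.55%), an elongation factor with 69.3, 40.2 and 55.0 CPM after saline and 28.6, 55.1 and 23.5 CPM after methamphetamine. None of 11 myelin and oligodendrocyte genes held one, although the summed RNA level of 5 oligodendrocyte markers was 12.10 to 13.38 log2 CPM. Immediate early genes had a peak only in Egr1 among 15, a transcription factor induced by neuronal activity, with 3.80, 11.8 and 3.67 CPM after saline and 15.4, 7.14 and 15.1 CPM after methamphetamine (log2 change 1.39, edgeR unadjusted p 0.125, adjusted p 0.9998). The Egr1 change was 0.71 with the library set as a covariate and 2.06 without saline replicate 2. Its groups overlapped, and its highest value in each treatment came from a set B library.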

How the data were processed

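hnRNP H CLIP-seq and RNA-seq were analysed in 3 saline and 3 methamphetamine pools per assay. The submitters' processing notes name Trimmomatic, UMI-tools, STAR, bedtools, Subread, featureCounts, limma, edgeR and the mm10 build, without roles or order; the peak caller is not given in the sources used here. The authors deposited 1 peak list per treatment, with a signal score per peak on no stated scale, p-values and q-values (all under 0.05) and regions per the file headers. They deposited whole-number read counts per peak (172271 lines, 147438 distinct positions, each used once) for the 6 CLIP libraries, and log2 CPM per gene for RNA-seq, which inverted to whole reads in 100% of values with an offset of 0.5 (tolerance 0.01 reads) and summed to 3935160 to 5091839 reads per library. Whether reads sharing a UMI were merged, or strand used, is not given in the sources used here.

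Positions were classed at the midpoint, 50 nt past the start, a 3′ UTR taking precedence over a 5′ UTR, then coding exons, exons of other kinds and introns. List starts count from 0; coordinates here count from 1 on GRCm38. No genome sequence was used: the 100 nt came from GENCODE M21 transcripts, so peaks across exon edges and intron peaks have none, a departure from the planned genome windows. Coding windows were full 100-nt pieces of exons, midpoint in coding sequence, from 1 transcript per gene, that with the longest coding sequence. Motifs were read on the peak strand.

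For CLIP, edgeR 4.0.16 ran its quasi-likelihood test over all distinct positions that passed filterByExpr, with TMM scaling; DESeq2 1.42.0 was an alternative. RNA-seq was fitted with limma 3.58.1 (mean-variance trend), in R 4.3.3. Adjusted p-values are Benjamini-Hochberg over all features. Read shares used exact permutation tests. Fits were tested on simulated data. edgeR's common biological coefficient of variation was 55.9%. Named peaks were the 8 with the highest median CPM, the 5 smallest p, the 4 highest of each list by the authors' signal, the 5 genes with the most peaks, up to 4 per gene list, and Npw, Ccdc27 and Hnrnph1. The peaks and gene lists were chosen with earlier results of these data known. Alternatives covered scaling, filter, test, replicate block, library set, region order, overlap, window and each replicate left out; those on mitochondrial and nuclear peaks were added after seeing the data. Results for a few named genes are not reported here.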

Additional observations from a re-analysis of the deposited data

How the results depend on the processing

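The coding-exon share of the methamphetamine list was 10.4% with coding exons taken first in the region order, 11.2% over every line and 9.94% in better-scoring positions, and that of the saline list 9.67%, 12.2% and 9.91%. In windows of 200 nt, 94.2% of peaks held GGG and 61.8% GGGG; a longer window holds more by construction.

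For CLIP, fits with a filter called 0 coding-exon peaks under every alternative run. Without a filter 13 of 1054 counted peaks were called, all lower after methamphetamine (1.23%; all positions 0.295%), 6 of them drawn to more than 90% from a single library, and 2 had passed filterByExpr; 106 (10.1%; all positions 4.84%) had an unadjusted p under 0.05 and the median log2 change was -0.28. Without TMM that median was -0.0047. Over fits that each left out 1 replicate, the unadjusted count ranged from 8 of 525 tested peaks (1.52%; all positions 2.08%; without methamphetamine replicate 1) to 48 of 525 (9.14%; 8.42%; without methamphetamine replicate 2), with 45 of 540 (8.33%; 7.02%) without saline replicate 2 and 27 of 516 (5.23%; 3.52%) without saline replicate 3, and the median from 0.029 to 0.15. The filter passes other peaks at each omission. The cause of these shifts was not tested.

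For RNA-seq, 0 genes were called under every alternative run. Of 984 tested, the unadjusted count was 17 (1.73%; all genes 2.85%) without the variance trend and 21 (2.13%; 2.97%) with the library set as a covariate, where the median log2 change was 0.017. With replicates left out in turn it ran from 3 (0.305%; 1.05%; without saline replicate 1) to 55 (5.59%; 5.26%; without methamphetamine replicate 2), with 39 (3.96%; 5.10%) without saline replicate 2 and 20 (2.03%; 2.02%) without saline replicate 3, and the median from -0.070 to 0.023.

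Deviations of same-numbered CLIP libraries correlated at -0.36, -0.54 and -0.09, and of RNA-seq libraries at -0.35, -0.82 and -0.49. Each same-numbered pair has 1 library in set A and 1 in set B, which can by itself make these values negative. They therefore cannot decide whether replicate numbers pair the samples. With the replicate block the unadjusted counts were 7 (1.63%; all positions 1.23%) for CLIP and 3 (0.305%; all genes 0.791%) for RNA-seq, 0 were called in either, and the read-share difference of -0.32 had an exact permutation p of 0.25, the smallest that paired design allows. That difference ranged from -0.55 to -0.06 with replicates left out, was 0.049 over positions in both lists, and -0.53 for nuclear peaks alone. The median of the mitochondrial peaks ranged from 0.33 to 2.07 over all settings run. Depth limits the rest: 625 counted peaks were too shallow to test and 254 had no counts.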
